A study of Homo sapiens with 6 samples.

Results

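The small nucleolar RNA (snoRNA) host genes SNHG1, SNHG3, SNHG5, SNHG6, SNHG7, SNHG8, SNHG12, SNHG15, SNHG16 and GAS5 were followed in K562 cells. These 10 long noncoding RNAs were picked by name, and 9 of them had a row among the 17066 symbols of the deposited values. SNHG3 had no row and was not analysed here. All 9 exceeded 1 FPKM in every group. FPKM counts sequenced fragments per transcript length and sequencing depth.

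RNA-seq had been carried out on 6 samples of K562, a leukemia line that expresses globin and other erythroid genes. The cells carried a PiggyBac transposon with a doxycycline-inducible cassette. In CEBPA cells the cassette held wild-type C/EBPα, in P30 cells the short C/EBPα-p30 isoform, and in CTR cells it was empty. All 3 lines received 200 ng/ml doxycycline for 48 h, with 2 biological replicates each, so that the drug was shared by every group and no line without it was sequenced. Each group is thus 1 stable line, and what the transgene did cannot be told apart from other differences between the lines. The deposited tables give 1 value per gene and group with the replicates pooled. They hold neither the read depth behind a value nor the spread between replicates, and every comparison that follows is a description without error, interval or test. The CEBPA gene itself was not analysed here.

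Most human snoRNAs are cut out of introns. Box C/D snoRNAs guide the 2′-O-methylation of ribosomal RNA and box H/ACA snoRNAs guide its pseudouridylation. Some introns that hold them belong to genes of ribosomal proteins and translation factors, others to the noncoding genes described here, whose spliced exons encode no known protein. The spliced host RNA is exported, meets ribosomes and is often removed by nonsense-mediated decay, so that its level depends on decay as well as on transcription. Many snoRNA host genes start transcription at a C followed by a run of pyrimidines, the terminal oligopyrimidine (TOP) start that they share with ribosomal protein genes. GAS5 was named after its accumulation in growth-arrested cells, and its RNA can also bind the glucocorticoid receptor. These statements are background and were not measured here.

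The hosts differ in how many guide RNAs they carry. RefSeq places 11 snoRNA genes within GAS5 and 9 within SNHG1. It places 4 within SNHG12, 3 within SNHG16, 2 each within SNHG3, SNHG5 and SNHG7, and 1 each within SNHG6, SNHG8 and SNHG15. On the genome build hg19 (GRCh37) that the reads were aligned to, GAS5 (ENSG00000234741) lies on the minus strand at chr1:173827697-173838020 and SNHG1 (ENSG00000255717) on the minus strand at chr11:62619450-62623425. SNHG5 (ENSG00000203875) is at chr6:86360209-86388650 and SNHG12 (ENSG00000197989) at chr1:28905050-28909644, both on the minus strand. SNHG8 (ENSG00000269893) is at chr4:119199858-119206471 on the plus strand. These spans are from Gencode release 44 lifted to GRCh37, a later release than the Gencode 19 that the authors used, and all 10 genes are annotated there as lncRNA. GAS5 has 91 annotated transcripts with a median of 10 exons, SNHG1 has 80 with a median of 8, and SNHG8 has 15 with a median of 3. The longest open reading frame of a transcript had a median of 65 codons in GAS5, 52 in SNHG1 and 41 in SNHG8. SNHG7 had the longest, with a median of 114 codons.

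The starts of the hosts show the TOP letters that several of them share. In the 30-base windows printed here, 10 bases lie before the annotated start and 20 from it on, and a start was counted as TOP-like when it was a C with at least 4 further C or T behind it. Capitals mark that C and its unbroken run of C and T in TOP-like starts, and a window without such a start is in lower case throughout. The first 4 windows hold TOP-like starts, and for GAS5, SNHG8 and SNHG5 the TOP-like one of their annotated starts is shown. The RefSeq starts of GAS5 and SNHG8 are not TOP-like. Neither is the most frequent Gencode start of SNHG5, which 61 of its 89 transcripts share. Of these 4 hosts only SNHG12 is TOP-like at both. The last 3 are shown for contrast: SNHG1 because its run is short, SNHG16 and SNHG15 because they are the hosts that were lower in CEBPA. Windows were thus picked by their letters or by expression, so they cannot relate the start to the difference in CEBPA. SNHG3, SNHG6 and SNHG7 are not printed.
GAS5, most frequent Gencode start, minus strand, chr1:173837108-173837137: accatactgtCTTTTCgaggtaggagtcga
SNHG12, most frequent Gencode start and RefSeq start, minus strand, chr1:28908366-28908395: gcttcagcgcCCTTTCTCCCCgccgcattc
SNHG8, most frequent Gencode start, plus strand, chr4:119199903-119199932: aggcctcggcCTTTCacattcgggaagcgt
SNHG5, RefSeq start, minus strand, chr6:86388432-86388461: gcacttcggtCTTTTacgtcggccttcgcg
SNHG1, most frequent Gencode start and RefSeq start, minus strand, chr11:62623338-62623367: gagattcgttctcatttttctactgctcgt
SNHG16, most frequent Gencode start, plus strand, chr17:74553838-74553867: gcggtctcgcgttcttttcgaggtcggccg
SNHG15, most frequent Gencode start, minus strand, chr7:45026248-45026277: cgaggtgcgcggcgcagcgcgcggcgtcag

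The coordinates are on GRCh37. The RefSeq starts were taken from GRCh38.p14 and placed on GRCh37 by an exact match of 80 bases. RefSeq gave a promoter for 8 of the 10 hosts, all but SNHG6 and SNHG15, and thus also for SNHG3, which had no expression value. Of the 8 starts 2, those of SNHG5 and SNHG12, were TOP-like. Of all 35116 RefSeq promoters, 4.07% were, and of the 78 promoters of cytosolic ribosomal proteins 60.3%. With the start allowed to lie up to 2 bases to either side, SNHG7 was TOP-like too, giving 3 of 8 against 10.5% of all promoters. The count depends on which start is taken. At the most frequent Gencode start, a choice added after the RefSeq windows had been seen, 4 of 10 hosts were TOP-like (GAS5, SNHG6, SNHG8 and SNHG12). Of 62803 genes 2.36% were, and of 79 ribosomal protein genes 65.8%. That start is shared by 50 of 91 annotated transcripts in GAS5, but by 5 of 15 in SNHG8, 4 of 19 in SNHG12 and 3 of 8 in SNHG6. The RefSeq start of GAS5, at base 173838183 of the chromosome, lies upstream of its most frequent Gencode start at base 173837127, and the starts used by these cells were not measured. In the 300-base RefSeq promoters, the letters TTGCNNAA, a form of the C/EBP consensus with 2 bases left open, were looked for. They were found on neither strand in any of the 8 hosts, against 10.5% of all promoters. The letters CCAAT occurred on either strand in 2 of the 8, GAS5 and SNHG5 (34.6% of all promoters), and CACGTG, the E-box bound by MYC, in SNHG7 (7.26% of all). For GAS5 the promoter searched lies around its RefSeq start and does not cover the TOP-like Gencode start printed above.

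The hosts fell into an abundant and a less abundant set. In CTR cells SNHG5 had 809 FPKM, GAS5 757, SNHG1 411, SNHG8 259 and SNHG6 252, whereas SNHG16 had 74.7, SNHG12 58.1, SNHG15 49.1 and SNHG7 38.4. The step from SNHG6 to SNHG16 was 3.38-fold, and the 5 abundant hosts made up 91.9% of the members' summed FPKM. Since FPKM are per length, these levels can be compared between genes. SNHG5 ranked 118th and GAS5 123rd among all rows in CTR, and even SNHG7 exceeded 82.7% of them. The order of the first 3 hosts was the same in each line. Places were exchanged between SNHG8 and SNHG6, between SNHG16 and SNHG12 and between SNHG15 and SNHG7, which lay within 1.28-fold of each other in CTR, and without replicate values it is not known which neighbours differ beyond their spread.

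**Figure D1:**
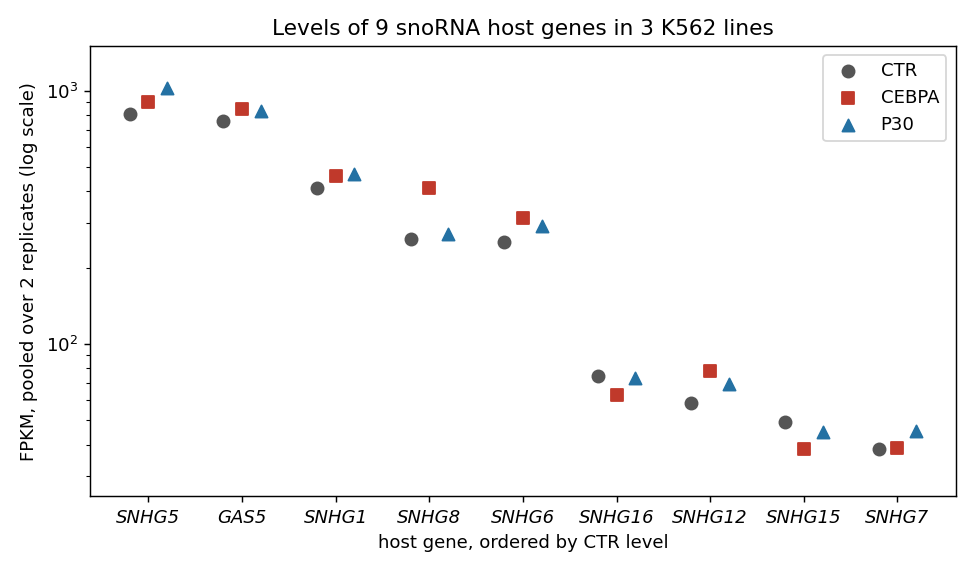
FPKM on a log scale of the 9 host genes with a row, ordered by their CTR level, in the CTR (circles), CEBPA (squares) and P30 (triangles) lines, each point being 1 value pooled over 2 replicates, with no error available. SNHG5 and GAS5 lead in every line, and SNHG8 stands out by its CEBPA value of 413 FPKM against 259 in CTR and 272 in P30.

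CEBPA vs CTR asks how the hosts stand in cells with wild-type C/EBPα. The members' median difference of log2(FPKM + 1) was 0.16, with 7 of 9 hosts higher in CEBPA. Over all 13673 genes with over 1 FPKM in CEBPA or CTR the median difference was -0.0087 and 49.5% were higher. Only SNHG8 reached 1.5-fold, and no host reached 2-fold in either direction. Among all genes compared, 24.0% were higher and 18.6% lower in CEBPA by 1.5-fold or more, and 14.0% were higher and 6.92% lower by 2-fold or more, so that 1 of 9 is not above the background.

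SNHG8, the host of the H/ACA guide SNORA24, had 259 FPKM in CTR cells, 413 in CEBPA cells and 272 in P30 cells. The CEBPA value stood apart from those of CTR and P30, which were close to each other. Its difference of log2(FPKM + 1) was 0.67 in CEBPA vs CTR, and 78.4% of all genes compared had a lower one. The SNHG8 span meets PRSS12 on the opposite strand, which had 0.178 FPKM in CTR and 1.14 in CEBPA.

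SNHG12, which carries H/ACA guides and the C/D guide SNORD99, had 58.1 FPKM in CTR against 77.9 in CEBPA and 69.3 in P30. SNHG6, the host of the C/D guide SNORD87, had 252 FPKM in CTR, 313 FPKM in CEBPA and 291 FPKM in P30. Both were highest in CEBPA, with P30 in between, and their differences of log2(FPKM + 1) in CEBPA vs CTR were 0.42 and 0.31. TRNAU1AP, on the strand opposite to SNHG12, had 39.5 FPKM in CTR and 24.0 in CEBPA, and was thus lower where SNHG12 was higher.

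The 3 most abundant hosts differed little between CEBPA and CTR. GAS5, the carrier of the largest number of guides here, had 757 FPKM in CTR cells, 842 in CEBPA cells and 833 in P30 cells. SNHG1, a host of C/D guides, had 411 FPKM in CTR against 460 in CEBPA and 469 in P30. SNHG5, the host of SNORD50A and SNORD50B, had 809 FPKM in CTR, 904 FPKM in CEBPA and 1027 FPKM in P30. Each was 11.3% to 11.9% higher in CEBPA than in CTR, and their differences of log2(FPKM + 1) lay between 0.15 and 0.16. For GAS5 the CEBPA and P30 values were within 1.01-fold of each other.

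SNHG7, which carries H/ACA guides, had 38.4 FPKM in CTR cells, 38.6 in CEBPA cells and 45.2 in P30 cells, so that CTR and CEBPA hardly differed. SNHG16 and SNHG15 were lower in CEBPA than in CTR. SNHG16, the host of SNORD1A, SNORD1B and SNORD1C, had 74.7 FPKM in CTR against 62.8 in CEBPA and 73.0 in P30. SNHG15, the host of SNORA9, had 49.1 FPKM in CTR, 38.5 FPKM in CEBPA and 44.9 FPKM in P30. Their differences of log2(FPKM + 1) in CEBPA vs CTR were -0.25 and -0.34, and CEBPA was the lowest line for both. The SNHG16 span meets ST6GALNAC1 on the opposite strand, whose level fell to 10.4 FPKM in CEBPA from 55.8 in the control line. Unlike TRNAU1AP and SNHG12, this pair was thus lower together in CEBPA. Whether reads shared with ST6GALNAC1 entered the SNHG16 difference was not tested.

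P30 vs CTR asks the same of the short isoform. The members' median difference of log2(FPKM + 1) was 0.19 and 7 of 9 hosts were higher in P30, against a median of 0.023 and 55.1% higher over the 12395 genes compared. No host reached 1.5-fold or 2-fold. Of all genes compared, 2.69% were higher and 2.63% lower in P30 by 1.5-fold or more, and 1.02% were higher and 0.613% lower by 2-fold or more. SNHG5 had the widest difference among the hosts, 0.34, or 26.9% more FPKM in P30, and 92.4% of all genes compared had a lower one. SNHG12 (0.25), SNHG7 (0.23), SNHG6 (0.21), SNHG1 (0.19) and GAS5 (0.14) followed, with the difference of log2(FPKM + 1) in brackets. SNHG8 was at 0.068 and SNHG16 at -0.032, which leaves both close to CTR, and SNHG15 was at -0.13. The hosts that were lower in P30 were also the lower ones in CEBPA, but both comparisons use the same CTR samples.

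**Figure D2:**
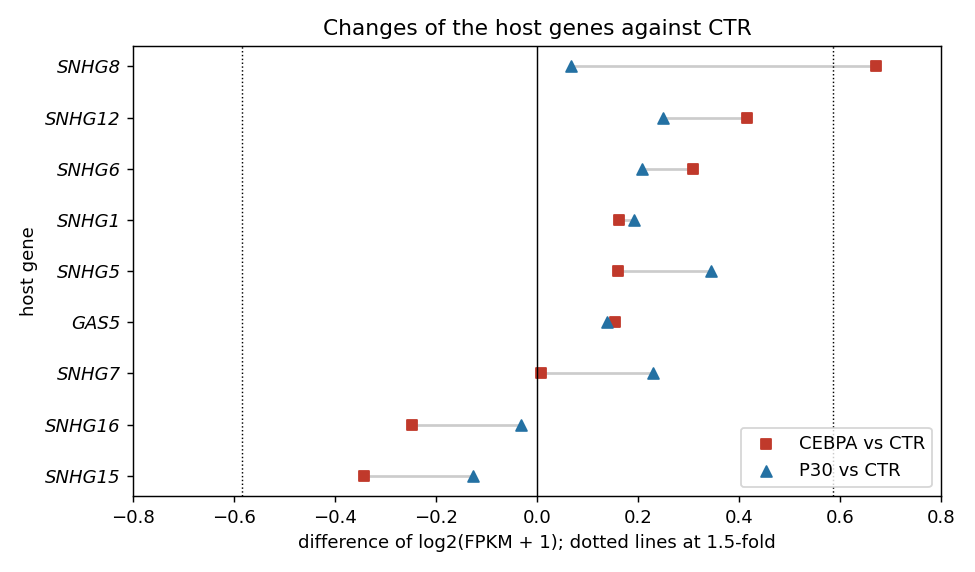
Difference of log2(FPKM + 1) against CTR for each of the 9 hosts in CEBPA (squares) and P30 (triangles), 1 pooled value per group, with grey lines joining the values of a gene and dotted lines at 1.5-fold. SNHG8 in CEBPA, at 0.67, is the only point beyond a dotted line, and SNHG16 and SNHG15 lie below 0 in both lines.

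In CEBPA vs P30 the hosts were spread around no difference, with a median difference of log2(FPKM + 1) of -0.030, 4 of 9 higher in CEBPA and 47.9% higher among the 13569 genes compared. SNHG8 was 1.52-fold higher in CEBPA, with a difference of 0.60, and was again the only host past 1.5-fold, against 22.3% of all genes higher and 17.8% lower by that fold. None of the hosts reached 2-fold, against 13.1% of all genes higher and 5.79% lower. SNHG12 (0.17), SNHG6 (0.10) and GAS5 (0.015) were the other hosts with a higher value in CEBPA. SNHG1 was at -0.030, and its sign and that of the median flip when the FPKM are centred or scaled to the same sum. SNHG7, SNHG16, SNHG15 and SNHG5 were lower in CEBPA than in P30, with differences of log2(FPKM + 1) from -0.22 to -0.18. With the same sum these 4 differences ran from -0.091 to -0.050.

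The difference in CEBPA vs CTR was set beside those of other genes that carry snoRNAs or share the TOP start. Of the 18 other hosts listed, mostly noncoding, 7 had a row, and their median difference of log2(FPKM + 1) was 0.072 with 4 of 7 higher in CEBPA. ZFAS1, a noncoding host of C/D guides, was the highest of them, with 207 FPKM in CTR and 260 in CEBPA, and SNHG17 the lowest, with 22.6 and 15.7. DANCR had 107 FPKM in CTR and 115 in CEBPA, EPB41L4A-AS1 58.6 and 62.6, SNHG9 21.4 and 22.5, SNHG11 15.7 and 13.2, and SNHG10 9.60 and 8.69. None of the 7 reached 1.5-fold.

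Protein coding hosts and ribosomal protein genes were lower in CEBPA than in CTR on the same scale. Of 27 coding hosts with a value, 23 were lower, and the median difference of log2(FPKM + 1) was -0.36. At least 1.5-fold lower were 6 of the 27, a share near the 18.6% of all genes. RPS3, a ribosomal protein of the small subunit, was the lowest, with 3394 FPKM in CTR and 2052 in CEBPA. The highest was RCC1, the exchange factor of the GTPase Ran, with 193 and 256 FPKM. RCC1 overlaps SNHG3 on the same strand in the later Gencode release that gave the spans. Whether reads of SNHG3, the host without a row, entered the RCC1 values was not tested. Of 66 cytosolic ribosomal protein genes 64 were lower in CEBPA, with a median difference of -0.39, and RPL30 was the highest at 0.094. By 1.5-fold or more 11 of the 66 were lower, which as a share is not above the 18.6% of all genes. GAS5, SNHG1, SNHG5, SNHG6, SNHG8 and SNHG12 lay above all 66 ribosomal protein genes, SNHG7 above 64, SNHG16 above 54 and SNHG15 above 39. The members' median exceeded that of the ribosomal proteins by 0.55 in CEBPA vs CTR and by 0.14 in P30 vs CTR. Scaling both groups to the same FPKM sum moved the median of all genes in CEBPA vs CTR from -0.0087 to 0.091. The members' median then was 0.27 and that of the ribosomal proteins -0.27. Of the 66 ribosomal protein genes 6 were then higher by any amount, 0 of them by 1.5-fold or more. By 1.5-fold or more 1 of the 66 was lower, and 1 of the coding hosts. The shares of all genes past 1.5-fold were not computed with the same sum, here or below. The difference between these lists was not tested, since there is 1 value per group.

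Other TOP mRNAs were spread widely. Of 13 with a value, 8 were lower in CEBPA than in CTR, with a median difference of log2(FPKM + 1) of -0.16. By 1.5-fold or more 3 were lower, near the 18.6% of all genes, and 1 with the same sum. PABPC1, a poly(A)-binding protein, was the highest at 0.43, and EEF1D, a translation elongation factor subunit, the lowest at -0.98. EEF1A1 was listed at 0 in every group, although it is used by every cell, so a listed 0 or an absent row cannot be read as lack of expression. In P30 vs CTR the median difference was 0.21 for the 7 other hosts, 0.047 for the coding hosts, 0.054 for the ribosomal proteins and 0.14 for the other TOP mRNAs.

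**Figure D3:**
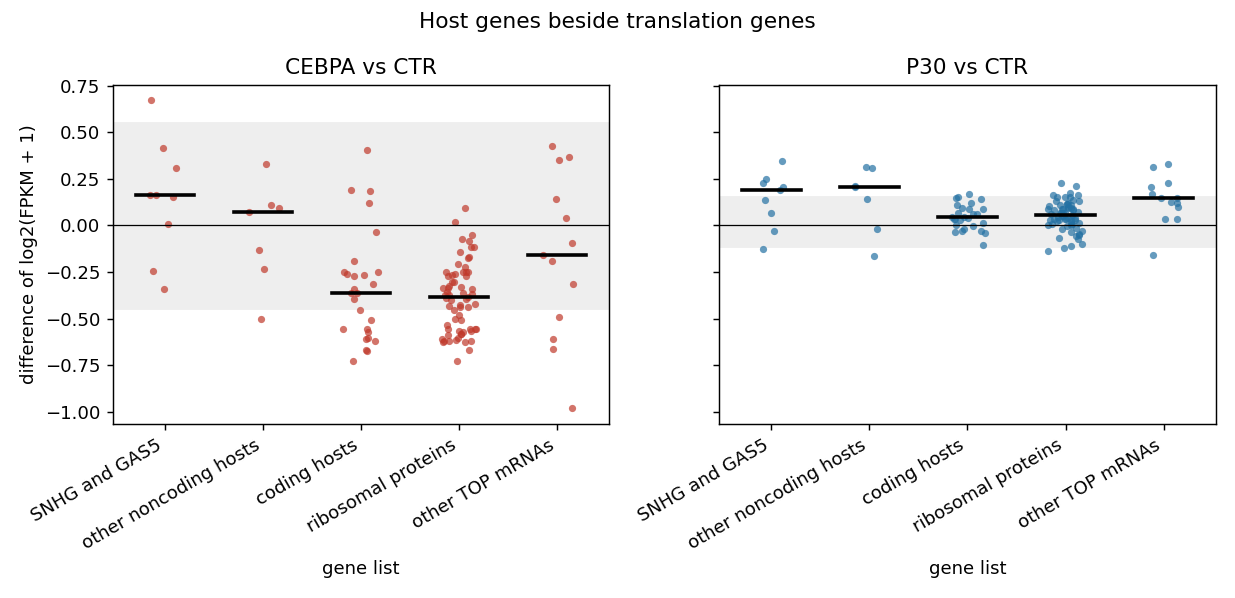
Difference of log2(FPKM + 1) in CEBPA vs CTR (left) and P30 vs CTR (right) for the 9 SNHG and GAS5 hosts and 4 other gene lists, each point 1 gene, black bars the list medians and the grey band the range between the quartiles of all genes compared. In CEBPA vs CTR the median is 0.16 for the hosts and -0.39 for the 66 ribosomal proteins, while in P30 vs CTR all 5 medians lie between 0.047 and 0.21.

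The proteins that bind and assemble snoRNAs had no common direction in CEBPA vs CTR. Of the box C/D core, FBL, the methyltransferase, had 273 FPKM in CTR and 147 in CEBPA, NOP58 had 81.4 and 87.3, and NHP2L1 had 127 and 124. Of the box H/ACA core, NOP10 had 227 FPKM in CTR and 597 in CEBPA, DKC1, the pseudouridine synthase, had 112 and 87.0, NHP2 had 132 and 96.4, and GAR1 had 47.8 and 54.1. NOP10 thus was over 2-fold higher in CEBPA and FBL over 1.5-fold lower, while the other core proteins stayed within 1.5-fold. Among 13 assembly and transport factors the median difference of log2(FPKM + 1) was -0.12, or -0.011 with the same sum, with NAF1, which loads H/ACA particles, the highest (14.8 FPKM in CTR and 59.4 in CEBPA) and PIH1D1 the lowest (118 and 46.4). In P30 vs CTR none of the 3 C/D core, 4 H/ACA core and 13 assembly genes reached 1.5-fold.

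Nonsense-mediated decay factors, which act on many spliced hosts, were also mixed. Of 17 factors and decay enzymes with a value 7 were higher and 10 lower in CEBPA than in CTR, with a median difference of log2(FPKM + 1) of -0.13, and 2 were higher and 2 lower by 1.5-fold or more, against 24.0% and 18.6% of all genes. With the same sum the median was -0.015, with 3 higher and 1 lower by that fold. SMG1, the kinase of UPF1, was the highest: it had 19.04 FPKM in CTR cells, 65.3 in CEBPA cells and 22.0 in P30 cells. SMG9, a regulator of SMG1, was the lowest, with 40.3, 16.9 and 39.0. The helicase UPF1 itself had 37.3 FPKM in CTR against 44.9 in CEBPA and 37.8 in P30. In P30 vs CTR 15 of the 17 were higher, against 55.1% of all genes, none of them 1.5-fold, with a median of 0.12.

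TOP RNAs are under the control of mTORC1 and the cap-binding protein LARP1. Of 14 genes of this group with a value, 10 were lower in CEBPA than in CTR and 7 of these at least 1.5-fold, against 18.6% of all genes. The list's median difference of log2(FPKM + 1) was -0.59. With both groups scaled to the same sum 5 were lower by that fold, and the share of all genes on that scale was not computed. LARP1 had 81.0 FPKM in CTR, 48.1 FPKM in CEBPA and 78.5 FPKM in P30. DDIT4, a stress-induced inhibitor of mTORC1, had the deepest difference, with 168 FPKM in CTR and 9.90 in CEBPA, and LARP4 was the highest of the list, with 30.1 and 37.6. In P30 vs CTR none of the 14 reached 1.5-fold. For the glucocorticoid receptor, to which GAS5 RNA can bind, NR3C1 had 6.56 FPKM in CTR cells, 22.7 in CEBPA cells and 8.35 in P30 cells. Of 8 genes on the list of this receptor and its targets, 2 were at least 1.5-fold higher in CEBPA, NR3C1 and SGK1, and 1 was at least 1.5-fold lower, TSC22D3, which is near the 24.0% and 18.6% of all genes. The list median of -0.082 flips to 0.026 with the same sum, and 3 genes were then higher by that fold. In P30 vs CTR the list median was 0.064 and none of the 8 reached 1.5-fold.

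Cell type markers differed most in the CEBPA line. Of 11 erythroid genes of K562, 8 had a row, and their summed FPKM was 1935 in CTR, 729 in CEBPA and 1330 in P30. In CEBPA 7 of the 8 were at least 2-fold lower than in CTR, against 6.92% of all genes. TFRC, the transferrin receptor, was the exception with 133 FPKM in CTR and 134 in CEBPA. In P30 5 of the 8 were lower, 2 of them at least 2-fold, against 0.613% of all genes lower by that fold. ALAS2, which starts heme synthesis in erythroid cells, was one of these, with 149 FPKM in CTR and 44.7 in P30, whereas GATA1, the erythroid transcription factor, had 185 FPKM in CTR against 53.1 in CEBPA and 193 in P30. Of 12 granulocyte genes 8 had a row, with a summed FPKM of 4.86 in CTR, 10049 in CEBPA and 32.0 in P30, whereas FCGR3B, CXCR2, ELANE and MPO had none. S100A8, S100A9 and S100A12 made up 9963 FPKM of the CEBPA sum, and the other 5 genes ran from 0.556 FPKM (MMP9) to 59.0 (CSF3R) in CEBPA. Of 6 lymphoid genes 3 had a row, and they summed to 13.2, 4.34 and 13.2 FPKM. None of the markers with a row was listed at 0. In these bulk samples, fewer cells of a type and less RNA per cell cannot be told apart, and the part of cell state in the differences of the hosts was not tested.

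The genes whose pair of differences against CTR came nearest to the members' medians were MIR4442, NUP214, SPTLC1, CSNK1E and CHP1, by Euclidean distance over 6551 other genes with over 10 FPKM in all 3 groups. Their distances ran from 0.012 to 0.018 on the log2 scale. With 3 pooled values per gene this likeness is a description only. Of 36 small RNAs hosted by the 10 genes, 1 had a row, SNORA73B of SNHG3, with 23.1 FPKM in CTR, 26.5 FPKM in CEBPA and 19.5 FPKM in P30, so that the guides themselves cannot be followed beside their hosts.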

How the data were processed

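Strand-specific paired-end libraries were aligned by the authors to hg19 with TopHat 2 and quantified with Cuffdiff on Gencode 19, and the deposited values are FPKM with the replicates of a group pooled. The methods name ribosomal RNA depletion, an mRNA kit, TopHat with default parameters, and sequencing runs on a pair of instruments with different read lengths, without saying which samples were in which. Whether strand was used in counting is not given in the sources used here. In the later Gencode release that gave the spans, 7 of the 9 hosts with a row span part of a coding gene. Overlaps in Gencode 19 were not examined, so whether these hosts shared reads with coding genes in counting is not known. Their FPKM are uncertain wherever they did.

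Differences of log2(FPKM + 1) were computed with Python 3.11.15, numpy 2.4.6 and pandas 2.3.3 for genes above 1 FPKM in either group. This scale understates the change of low genes. Each row was taken as 1 gene, and every group had the same FPKM in both of its tables. No test was possible. The members, the gene lists and the rules for named genes (all members, the extremes of each list in CEBPA vs CTR, the core snoRNP proteins and the other noncoding hosts) were chosen with earlier results of these data known. LARP1, UPF1, GATA1, SGK1, single erythroid and granulocyte markers and the coding genes that overlap a host were chosen after their values were seen. The computation was tested on simulated data.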

Additional observations from a re-analysis of the deposited data

How the results depend on the processing

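No paired analysis was possible because replicates had been pooled before deposit, for which reason leaving out a replicate could not be run either. The alternatives were a pseudocount of 0.1, centring on the median of all genes, no filter, a filter at 5 FPKM, summed rows of a symbol, genes of all 3 tables, a TOP start shifted by up to 2 bases, and, added after the data had been seen, scaling to the same FPKM sum. Shifts under 0.20 on the log2 scale, which is the scaled median absolute deviation of P30 vs CTR over all genes, and up to 1.5 times for counts were taken as small. The filters, the summed rows and the choice of tables left the hosts and the ribosomal protein medians exactly as they were, so these 4 settings say nothing of stability. Under the other settings 114 of 119 values moved little and kept their sign. Centring and the same sum, however, move well expressed genes of a comparison by nearly the same amount, and the smaller pseudocount hardly acts on them. The 0.20 limit is also wider than the members' median of 0.16 in CEBPA vs CTR, so that this count does not show stability. In CEBPA vs P30 the median of the members and SNHG1, both at -0.030, became 0.0066 with centring and 0.10 with the same sum, where the median of all genes went from -0.036 to 0.085. The number of hosts with a TOP-like start went from 2 of 8 to 4 of 10 at the most frequent Gencode start, a choice that includes more hosts and other positions. The files hold no depth or replicate value behind each FPKM, and how far differences of this size exceed noise was not assessed.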
